A study of Mus musculus with 6 samples.

Results

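The genes of cholesterol and fatty acid synthesis were followed in 6 RNA sequencing libraries of mouse undifferentiated pleomorphic sarcoma cells, a malignant tumour of mesenchymal cells without a clear line of differentiation. There are 33 genes: 18 enzymes of sterol synthesis, 8 enzymes that make, elongate or desaturate fatty acids, 5 genes that control both branches, and the sterol transfer protein gene Stard4 with the lipoprotein receptor gene Vldlr. They were taken by symbol from the 35727 genes of the deposited count table, and all 33 were among the 12819 genes with enough counts to be tested. Both groups of libraries carry the line p53 KO Ccne1 OE, whose founder mesenchymal stem cells came from female p53-knockout C57/Bl6 mice and received a retrovirus that overexpresses Ccne1, the cyclin E1 gene, beside a red fluorescent tracer (RFP). That line was passaged 2 times under the skin of female wild-type mice before a further viral vector was added. In the 3 shPostn libraries the vector encodes a hairpin against Postn (periostin, a matrix protein that cells secrete), and in the 3 shSCR libraries it encodes a scrambled hairpin. The cells then grew as tumours in mice and were sorted by RFP before RNA extraction. Sample titles name the shPostn libraries a knockout, whereas the protocol describes a hairpin.

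The labels tie no library to a named tumour or mouse, so each p below measures only the spread between these libraries, which may be technical. They name 1 line per hairpin and no further hairpin against Postn, and give neither an age nor a batch. An effect of the hairpin line itself and one of less periostin cannot be told apart. Totals were 19603269 to 19931734 counts in shPostn and 19847860 to 20376554 counts in shSCR libraries. Postn itself (ENSMUSG00000027750; GRCm38 chr3:54361109-54391037, plus strand) measured 217, 471 and 639 CPM in the shPostn libraries, against 4097, 3602 and 3225 CPM in the shSCR libraries (CPM, read counts relative to the TMM-scaled library size; values here and below run from replicate 1 to 3). Its log2 fold change, shPostn over shSCR, was −3.04 (SE 0.41, edgeR adjusted p = 0.0125), and the exact permutation test gave p = 0.1, the lowest value 3 against 3 libraries can reach. Without shSCR replicate 1 or 2 the adjusted p for Postn was 0.0532 or 0.0542. Of all genes tested, 591 (4.61%) rose in shPostn and 709 (5.53%) fell, together 10.1%, at an adjusted p under 0.05.

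Cholesterol is built from acetyl-CoA through mevalonate, farnesyl diphosphate, squalene and lanosterol, and fatty acids are built from the same acetyl-CoA through malonyl-CoA. The membrane-bound transcription factors SREBP-1 and SREBP-2, encoded by Srebf1 and Srebf2, drive the genes of both branches. The escort protein Scap carries them from the endoplasmic reticulum to the Golgi for cleavage when sterols are scarce, and the Insig proteins hold Scap back when sterols are plentiful. Proliferating tumour cells need both products for new membranes.

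No gene of sterol or fatty acid synthesis changed past the threshold by edgeR without a covariate. Of the 33 genes, 1 did, beside 10.1% of all genes tested: Vldlr fell to 31.4% of its shSCR level. At an unadjusted p under 0.05, 3 of 18 sterol and 5 of 8 fatty acid genes were higher and none was lower. The shares of all genes were 13.4% higher and 13.5% lower. DESeq2 called 0 sterol and 4 fatty acid genes, all higher, beside 7.54% of all genes. limma-voom called no gene of either branch. Nor did edgeR with other scaling factors or count filters, or with chromosome medians taken out. With the replicate number as a block, edgeR called 5 of the enzymes higher, beside 2.5% of all genes, and did not call Vldlr. The labels do not say that libraries of the same number belong together. Over all genes tested, such libraries did not deviate together (correlations −0.07, −0.13 and −0.44). The enzymes of both branches nevertheless lay mostly above 0, with a positive log2 fold change in 16 of 18 sterol genes and 8 of 8 fatty acid genes, beside 51.6% of all genes tested. The median was 0.40 for sterol and 0.33 for fatty acid enzymes, beside 0.01 over all genes tested. The typical SE of a sterol gene was larger (median 0.22) than that of a fatty acid gene (0.12) or of all genes (0.11). The genes were picked as a pathway with earlier results known, so these counts and medians carry no test. In bulk libraries, fewer cells of a type and less RNA per cell cannot be told apart.

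**Figure D1:**
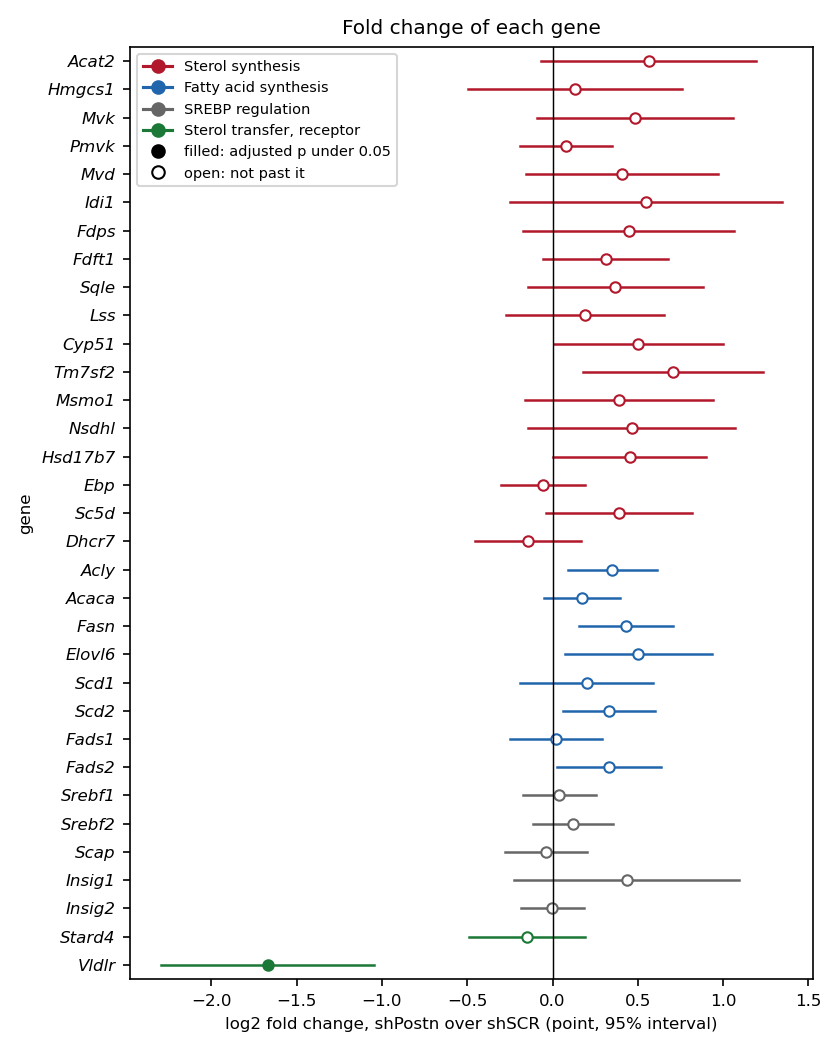
Log2 fold change of each of the 33 genes, shPostn over shSCR (horizontal axis; point and 95% interval), coloured by role; a filled point is past an adjusted p of 0.05. Vldlr at −1.67 is the filled point, and the other 32 are open; the median SE was 0.22 for sterol and 0.12 for fatty acid enzymes.

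Sterol synthesis begins with Acat2, which joins acetyl-CoA units, and Hmgcs1, which makes hydroxymethylglutaryl-CoA. Hmgcs1 (ENSMUSG00000093930; GRCm38 chr13:119690379-119708260, plus strand) measured 309, 217 and 169 CPM in the shPostn libraries, against 263, 189.6 and 182 CPM in the shSCR libraries. The groups overlapped, with replicate 1 highest and replicate 3 lowest in both, and the log2 fold change of 0.13 had a 95% interval of −0.50 to 0.76. Acat2 averaged 71.3 ± 18.7 CPM in shPostn and 48.3 ± 11.8 CPM in shSCR (SD, n = 3 each; log2 fold change 0.56, interval −0.07 to 1.19). Reads of Acat2 may be shared with its near-identical neighbour Acat3, which was listed at under 1 CPM in every library. The mevalonate kinases Mvk and Pmvk and the decarboxylase Mvd had log2 fold changes of 0.48, 0.08 and 0.41. Mvk stood at 40.7, 39.7 and 22.2 CPM in shPostn libraries and at 26.9, 24.1 and 22.4 CPM in shSCR libraries, so that shPostn replicate 3 lay below all shSCR libraries while the other shPostn libraries lay above them.

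The Hmgcs1 and Mvk promoters are shown because they hold the most matches to motifs of sterol-regulated genes. Each covers 250 bases before to 50 bases after the RefSeq start (GRCm38.p6), written 5′ to 3′ on the gene's strand, with matches in capitals. In Hmgcs1 (window chr13:119690101-119690400, plus strand) the capitals mark 1 sterol regulatory element core (TCACNCCAC, matched as TCACCCCAC and beginning 137 bases before the start) and 4 NF-Y boxes (CCAAT, here all read as ATTGG from the other strand). In Mvk (window chr5:114444019-114444318, plus strand) they mark 5 NF-Y boxes.
Hmgcs1: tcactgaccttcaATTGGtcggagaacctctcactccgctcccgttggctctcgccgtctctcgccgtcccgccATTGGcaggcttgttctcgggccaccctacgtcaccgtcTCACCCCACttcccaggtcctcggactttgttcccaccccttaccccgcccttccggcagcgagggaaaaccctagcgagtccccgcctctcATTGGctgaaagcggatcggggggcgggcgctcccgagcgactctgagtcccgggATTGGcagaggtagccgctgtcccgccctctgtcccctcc
Mvk: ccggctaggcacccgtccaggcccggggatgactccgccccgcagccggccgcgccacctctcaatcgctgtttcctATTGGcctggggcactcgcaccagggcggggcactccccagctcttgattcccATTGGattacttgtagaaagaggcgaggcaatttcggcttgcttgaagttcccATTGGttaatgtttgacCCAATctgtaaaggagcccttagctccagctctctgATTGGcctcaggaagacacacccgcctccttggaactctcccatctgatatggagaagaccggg

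The isoprenoid steps follow. Idi1, the isopentenyl diphosphate isomerase, averaged 148 ± 52.5 CPM in shPostn and 101 ± 27.7 CPM in shSCR (SD, n = 3 each), with a log2 fold change of 0.55 and the widest interval of the sterol branch, −0.25 to 1.34. For Fdps, which makes farnesyl diphosphate, the means were 298 ± 75.7 CPM in shPostn and 219 ± 57.6 CPM in shSCR, and the log2 fold change was 0.45 (−0.17 to 1.07). Fdft1, squalene synthase and the first enzyme committed to sterols, had a log2 fold change of 0.31 (−0.05 to 0.67). None of these intervals excluded 0.

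Squalene is then oxidised and closed into lanosterol. Sqle, squalene epoxidase, measured 289, 236 and 169 CPM in the shPostn libraries, against 210.5, 166 and 161 CPM in the shSCR libraries. Its groups overlapped at shPostn replicate 3, which lay among the shSCR libraries, and its log2 fold change was 0.37 (SE 0.21, edgeR adjusted p = 0.328). Lss, which forms lanosterol, had a log2 fold change of 0.19 (−0.27 to 0.65).

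Lanosterol is trimmed to cholesterol by demethylases, reductases and isomerases, and the branch's lowest p-values were found here. Tm7sf2, a sterol C14 reductase (ENSMUSG00000024799; GRCm38 chr19:6062821-6068373, minus strand), measured 11.7, 10.8 and 8.84 CPM in the shPostn libraries, against 8.61, 5.33 and 5.28 CPM in the shSCR libraries. Every shPostn library lay above every shSCR library, by a narrow margin between shPostn replicate 3 and shSCR replicate 1. It had the largest log2 fold change of the 33 genes in the upward direction, 0.71 (SE 0.22, 95% interval 0.18 to 1.24), but an adjusted p of 0.0923 by edgeR. Tm7sf2 was also the enzyme with the fewest counts, 104 in its lowest library. Its locus overlaps a neighbouring gene in the annotation, which could add to its counts or take from them.

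Cyp51, the lanosterol demethylase, and Hsd17b7, a ketoreductase, had log2 fold changes of 0.50 (unadjusted p = 0.0480, edgeR adjusted p = 0.181) and 0.45 (unadjusted p = 0.0494, edgeR adjusted p = 0.184). With Tm7sf2, these were the 3 sterol genes at an unadjusted p under 0.05. Msmo1 (0.39) and Nsdhl (0.46), which remove methyl groups, and the desaturase Sc5d (0.39) did not pass the test either. The isomerase Ebp (−0.06, interval −0.30 to 0.19) and Dhcr7 (−0.14, interval −0.45 to 0.16), the reductase that yields cholesterol itself, were the 2 sterol genes with negative values. Dhcr7 stood at 36.5, 36.1 and 27.5 CPM in the shPostn libraries, against 40.1, 37.9 and 32.6 CPM in the shSCR libraries, with shPostn replicate 3 lowest of all.

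The Tm7sf2 promoter is shown for the gene with the largest upward fold change. Its capitals mark 1 NF-Y box, beginning 47 bases before the start (window chr19:6067801-6068100, minus strand, RefSeq GRCm38.p6). This window lies inside the annotated gene.
Tm7sf2: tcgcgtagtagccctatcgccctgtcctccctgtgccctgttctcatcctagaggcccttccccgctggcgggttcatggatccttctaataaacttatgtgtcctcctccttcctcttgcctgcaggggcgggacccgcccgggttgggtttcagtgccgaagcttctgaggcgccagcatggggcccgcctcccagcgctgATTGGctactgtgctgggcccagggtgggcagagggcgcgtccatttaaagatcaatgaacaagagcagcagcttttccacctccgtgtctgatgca

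In the fatty acid branch, Acly cleaves citrate to cytosolic acetyl-CoA, Acaca turns it into malonyl-CoA, and Fasn assembles palmitate. Fasn (ENSMUSG00000025153; GRCm38 chr11:120805846-120824547, minus strand) measured 995, 894 and 737 CPM in the shPostn libraries, against 693, 639 and 618 CPM in the shSCR libraries. All shPostn libraries lay above all shSCR libraries. Its log2 fold change was 0.43 (SE 0.12, 95% interval 0.15 to 0.70), and its edgeR adjusted p of 0.0624 was the lowest of the synthesis genes, above the threshold.

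Acly showed the same separation, with 338, 295 and 264 CPM in the shPostn libraries, against 260.2, 226 and 217 CPM in the shSCR libraries, a log2 fold change of 0.35 (0.09 to 0.61) and an edgeR adjusted p of 0.0930. Acaca measured 201, 186 and 156 CPM in the shPostn libraries, against 163, 162 and 158 CPM in the shSCR libraries. The shSCR values of Acaca were close together, and shPostn replicate 3 fell just below them; its log2 fold change was 0.17 (edgeR adjusted p = 0.301).

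Elongases and desaturases then shape the chain. Elovl6, which extends palmitate to stearate, averaged 95.5 ± 16.0 CPM in shPostn and 67.4 ± 13.9 CPM in shSCR (SD, n = 3 each), with a log2 fold change of 0.50 (0.07 to 0.93) and an overlap at shSCR replicate 1. Scd1 and Scd2 are neighbouring genes on chromosome 19 that introduce the first double bond, and reads of these close relatives may not be fully separated. Scd2 had 1462, 1522 and 1349 CPM in the shPostn libraries, against 1339, 1051 and 1057 CPM in the shSCR libraries, with no overlap between groups and a log2 fold change of 0.33 (0.06 to 0.60).

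Scd1 measured 197, 164 and 134 CPM in the shPostn libraries, against 167, 133 and 130.4 CPM in the shSCR libraries, and its groups overlapped (log2 fold change 0.20, interval −0.19 to 0.59). The desaturases Fads1 and Fads2, which make polyunsaturated fatty acids, also lie side by side on chromosome 19, yet their log2 fold changes were 0.02 and 0.33. In all, 5 of the 8 fatty acid genes (Acly, Fasn, Elovl6, Scd2 and Fads2) had an unadjusted p under 0.05 (all higher; 13.4% of all genes), and in 3 of them (Acly, Fasn and Scd2) the groups did not overlap. Over all genes tested, shPostn lay wholly above shSCR in 16.6% and wholly below in 17.0%; in the sterol branch Tm7sf2 was the 1 such gene of 18.

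The Fasn promoter is shown for the synthesis gene with the lowest adjusted p. Its capitals mark 3 NF-Y boxes, of which a pair overlap in the run CCAATTGG (window chr11:120824498-120824797, minus strand, RefSeq GRCm38.p6).
Fasn: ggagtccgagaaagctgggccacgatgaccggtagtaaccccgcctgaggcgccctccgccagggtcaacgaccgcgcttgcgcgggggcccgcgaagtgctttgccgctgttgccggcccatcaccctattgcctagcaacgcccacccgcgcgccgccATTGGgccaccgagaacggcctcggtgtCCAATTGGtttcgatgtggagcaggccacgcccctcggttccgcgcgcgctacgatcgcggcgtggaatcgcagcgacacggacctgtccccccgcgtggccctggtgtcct

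**Figure D2:**
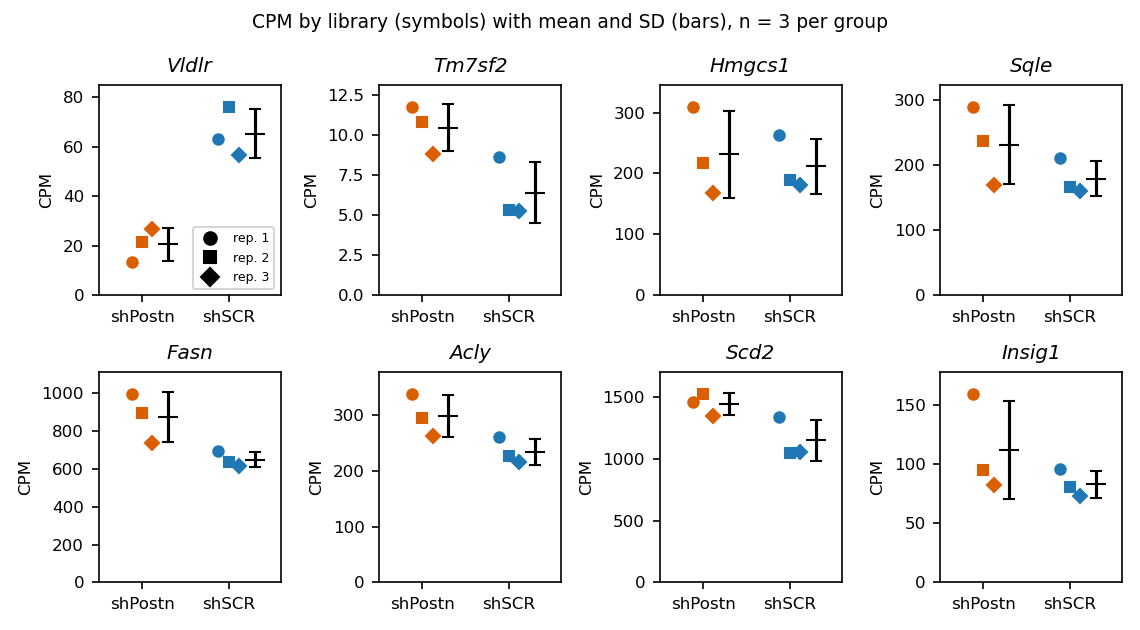
CPM of 8 genes in each library (symbols, replicate 1 to 3) with the mean and SD of each group (n = 3); vertical axes start at 0. Vldlr is lower in every shPostn library, Tm7sf2, Fasn, Acly and Scd2 are higher in every shPostn library, and Hmgcs1, Sqle and Insig1 overlap.

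Levels per length can be set beside each other within this pathway. Scd2 had the highest, with 264 CPM per kb in shPostn and 210.3 in shSCR, followed in shPostn by Fasn with 79.9 CPM per kb in shPostn and 59.4 in shSCR. Among sterol enzymes Fdps stood at 70.9 CPM per kb in shPostn and 52.0 in shSCR and Hmgcs1 at 50.4 CPM per kb in shPostn and 46.0 in shSCR, while Tm7sf2 was lowest at 2.38 CPM per kb in shPostn and 1.45 in shSCR. In the regulators, Srebf2 (65.0 CPM per kb in shPostn and 59.8 in shSCR) was above Srebf1 (11.7 CPM per kb in shPostn and 11.4 in shSCR) on this per-length scale.

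Libraries of the same group differed in both branches, and they did so for most genes at once. Each library's branch mean was taken as the mean log2 difference of its genes from the shSCR average. For sterol synthesis it was 0.63, 0.38 and −0.01 in the shPostn libraries and 0.28, −0.09 and −0.18 in the shSCR libraries. For fatty acid synthesis it was 0.46, 0.31 and 0.10 in shPostn, against 0.18, −0.04 and −0.14 in shSCR. The groups overlapped in both branches, since shSCR replicate 1 lay above shPostn replicate 3.

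shPostn replicate 1 was the highest library of its group for 18 of 18 sterol and 7 of 8 fatty acid genes, beside 34.9% of all genes tested. In shSCR, replicate 1 was highest for 17 of 18 sterol and 8 of 8 fatty acid genes, beside 32.1% of all genes. At the other end, shPostn replicate 3 was the lowest of its group for 17 of 18 sterol and 8 of 8 fatty acid genes (39.4% of all genes), and shSCR replicate 3 for 14 of 18 and 7 of 8 (32.5%).

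The sterol mean exceeded the fatty acid mean by 0.17 in shPostn replicate 1 and by 0.09 in shSCR replicate 1, the highest library of each group, and was below it by 0.11 in shPostn replicate 3. The median SD within a group on the log2 scale was 0.36 in shPostn and 0.24 in shSCR for sterol genes, 0.18 and 0.20 for fatty acid genes, and 0.14 and 0.09 for all genes tested. The sterol branch had the larger spread. Its median fold change was also the larger with all libraries, but without shPostn replicate 1 it was 0.25 in both branches; the difference between the branches itself was not tested.

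**Figure D3:**
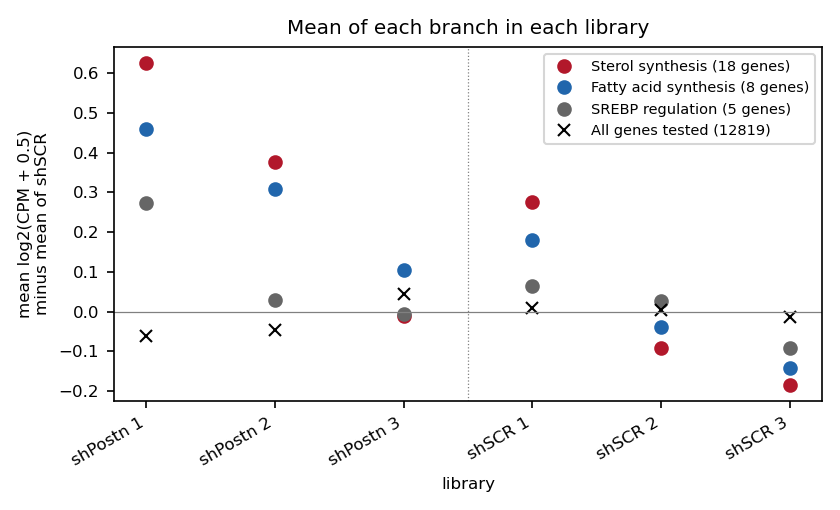
Mean log2(CPM + 0.5) of each branch in each library, minus the mean of the 3 shSCR libraries (vertical axis); crosses show all genes tested. shPostn replicates 1 and 2 lie highest in both synthesis branches, and shPostn replicate 3 lies below shSCR replicate 1.

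**Figure D4:**
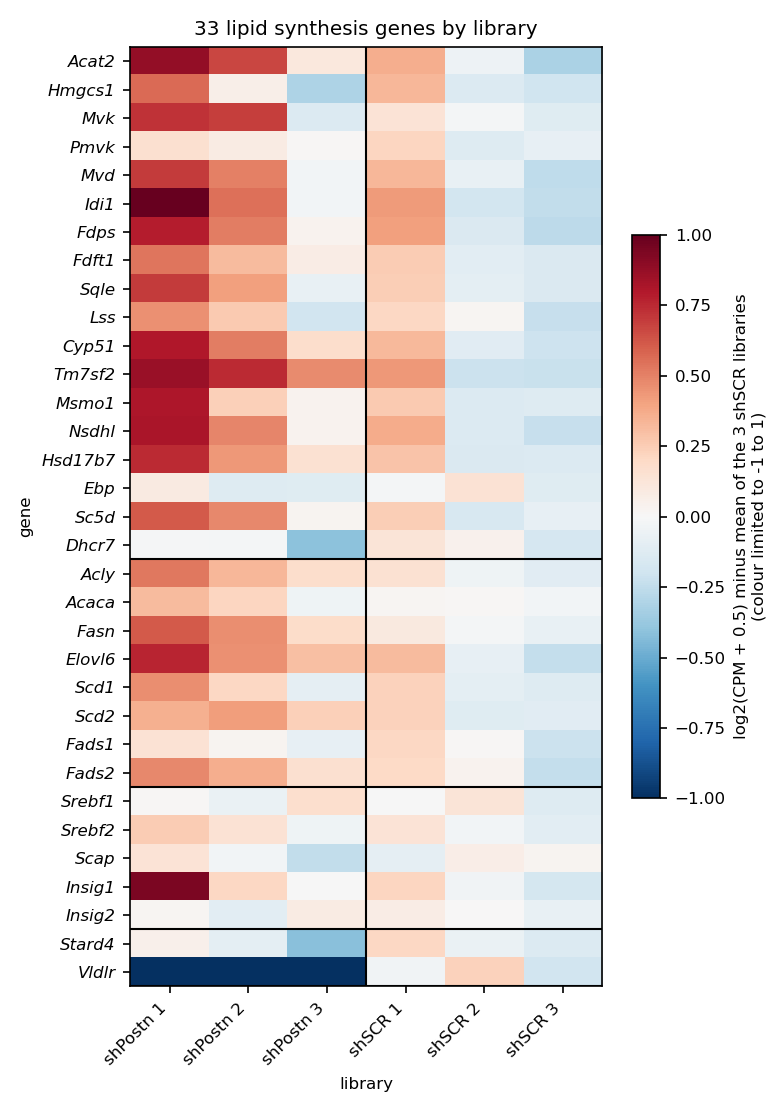
The same log2 differences gene by gene (rows, grouped by role; colour from −1 to 1) in the 6 libraries (columns). Over the sterol enzymes, replicate 1 is the reddest column of each group, and Vldlr is blue in all shPostn libraries.

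Other cells in the sort were gauged by markers. All 15 macrophage and leukocyte markers, led by Lyz2 (49.6, 17.8 and 358 CPM in shPostn, 83.8, 62.0 and 25.9 CPM in shSCR) and C1qb, were highest in shPostn replicate 3, and none changed between the groups by edgeR (0 at an unadjusted p under 0.05) or by DESeq2. Their summed level was 143, 63.6 and 1201 CPM in shPostn libraries and 253, 182 and 88.1 CPM in shSCR libraries. In shPostn, replicate 3 had the most leukocyte RNA and the lowest sterol and fatty acid means. In shSCR the order was the opposite: replicate 1 had the most leukocyte RNA and the highest branch means, and replicate 3 the least and the lowest. Adipocyte markers summed to at most 4.25 CPM, with 5 of 8 (Adipoq, Cidec, Cfd, Lep and Retn) at 0 in all libraries, keratinocyte and sebaceous markers to at most 3.84 CPM, and endothelial markers to at most 6.64 CPM. The 10 mesenchymal markers summed to 26645, 37004 and 46591 CPM in shPostn and 35558, 39897 and 39407 CPM in shSCR. In shPostn this is the reverse of the order of the branch means. Col1a2 and Col3a1 had the highest CPM averaged over both groups. None of the 10 changed by edgeR. At an unadjusted p under 0.05, 1 was higher and 1 lower, beside 13.4% and 13.5% of all genes. DESeq2 called 1, Vim, higher, beside 7.54% of all genes.

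With the leukocyte mean as a covariate, Fasn rose (edgeR adjusted p = 0.0193, log2 fold change 0.45), among 7.85% of all genes that rose in that fit, and the branch medians were 0.42 and 0.34. Without shPostn replicate 3, 7 enzymes rose: Mvk, Sqle, Tm7sf2 and Sc5d in the sterol branch and Acly, Acaca and Fasn in the fatty acid branch, with 7.93% of all genes rising. The medians were then 0.57 for sterol and 0.40 for fatty acid enzymes. DESeq2 on all 6 libraries called Acly, Fasn, Elovl6 and Scd2 higher, beside 7.54% of all genes, and no sterol enzyme. Without shSCR replicate 1, which had the highest shSCR branch means, Tm7sf2 rose (edgeR adjusted p = 0.0460), in a fit where 1.39% of all genes did. With any other single library left out, no synthesis gene changed.

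None of the 5 regulators changed by edgeR (0 at an unadjusted p under 0.05) or by DESeq2. Srebf1 measured 64.9, 61.4 and 72.3 CPM in the shPostn libraries, against 64.1, 70.4 and 58.8 CPM in the shSCR libraries, and Srebf2 measured 511, 473 and 417 CPM in the shPostn libraries, against 469.9, 419.7 and 399 CPM in the shSCR libraries. Both overlapped between the groups, with log2 fold changes of 0.04 (−0.17 to 0.25) and 0.12 (−0.11 to 0.36). Scap measured 79.3, 70.9 and 60.9 CPM in the shPostn libraries, against 67.7, 75.5 and 73.7 CPM in the shSCR libraries (log2 fold change −0.04, interval −0.28 to 0.20).

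Insig1, itself an SREBP target, measured 159, 95.4 and 82.3 CPM in the shPostn libraries, against 95.7, 80.7 and 73.0 CPM in the shSCR libraries. shPostn replicate 1 stood far above the other 5 libraries, which lay between 73.0 and 95.7 CPM, and the log2 fold change of 0.43 had an interval of −0.23 to 1.09. Insig2 measured 33.3, 30.5 and 35.0 CPM in the shPostn libraries, against 34.6, 32.9 and 31.3 CPM in the shSCR libraries, with a log2 fold change of −0.0014 (−0.19 to 0.18).

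The Insig1 promoter is shown for the regulator with the largest fold change of the 5; Insig1 and Srebf2 were, like most enzymes, highest in replicate 1 of both groups. Its capitals mark 1 E-box (CACGTG), beginning 101 bases before the start, and 1 NF-Y box (window chr5:28071162-28071461, plus strand, RefSeq GRCm38.p6).
Insig1: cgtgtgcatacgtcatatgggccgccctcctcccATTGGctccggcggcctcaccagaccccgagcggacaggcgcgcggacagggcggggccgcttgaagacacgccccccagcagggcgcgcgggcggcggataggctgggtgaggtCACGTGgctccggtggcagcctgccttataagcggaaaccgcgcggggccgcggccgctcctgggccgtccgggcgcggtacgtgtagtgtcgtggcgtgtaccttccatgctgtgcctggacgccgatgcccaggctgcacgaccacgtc

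Among 12 further genes of SREBP processing, stability and degradation, all tested, 1 rose and 2 fell, beside 4.61% and 5.53% of all genes (median log2 fold change −0.07). Prkaa2, a catalytic subunit of the energy sensor AMPK, stood at 4.05, 4.25 and 3.85 CPM in shPostn and 2.07, 2.05 and 2.44 CPM in shSCR (log2 fold change 0.89, edgeR adjusted p = 0.0351). Paqr3, a Golgi anchor of Scap, fell by 0.85 on the log2 scale (edgeR adjusted p = 0.0396), and Erlin2, which takes part in degradation at the endoplasmic reticulum, fell by 0.31 (edgeR adjusted p = 0.0340). Without shSCR replicate 2 the adjusted p for Prkaa2 was 0.134 and that for Paqr3 0.156; for Erlin2 it was 0.118 without shSCR replicate 3.

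Uptake and sterol transfer were represented by Vldlr and Stard4. Vldlr (ENSMUSG00000024924; GRCm38 chr19:27216484-27254231, plus strand), the very low density lipoprotein receptor that binds triglyceride-rich lipoproteins and reelin, measured 13.4, 21.4 and 26.7 CPM in the shPostn libraries, against 63.2, 76.0 and 56.7 CPM in the shSCR libraries. All shPostn libraries lay below all shSCR libraries, the highest shPostn value being under the lowest shSCR value by more than the spread within either group. The log2 fold change was −1.67 (SE 0.26, 95% interval −2.29 to −1.05, edgeR adjusted p = 0.0157), and it was −1.90 to −1.44 under every alternative run. The adjusted p was 0.0598, 0.0672 and 0.0508 without shSCR replicate 1, 2 and 3, and 0.0545 without shPostn replicate 2. The edgeR fit with the replicate number as a block did not call Vldlr either.

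Of the Vldlr promoter windows in RefSeq, the one that holds a motif is shown, for the 1 gene past the threshold. Its capitals mark 1 NF-Y box, beginning 78 bases before the start (window chr19:27216770-27217069, plus strand, GRCm38.p6). That window lies inside the annotated gene. The window at the annotated start of the gene (chr19:27216234-27216533, plus strand) held no match.
Vldlr: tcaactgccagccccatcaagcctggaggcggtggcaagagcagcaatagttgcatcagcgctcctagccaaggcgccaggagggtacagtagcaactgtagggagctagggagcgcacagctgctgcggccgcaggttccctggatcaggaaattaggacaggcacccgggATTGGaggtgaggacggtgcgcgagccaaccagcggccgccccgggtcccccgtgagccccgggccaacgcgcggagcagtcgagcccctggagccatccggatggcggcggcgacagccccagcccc

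Stard4, which moves cholesterol between membranes, measured 82.8, 74.6 and 59.7 CPM in the shPostn libraries, against 92.3, 76.1 and 72.6 CPM in the shSCR libraries (log2 fold change −0.15, interval −0.49 to 0.19). It lies on chromosome 18, whose genes lay at a median of −0.45 (log2 fold change), and with each chromosome's median taken out its value was 0.30 (adjusted p = 0.278). The chromosomes of the other 32 genes had medians between −0.06 and 0.08.

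In 13 other genes of lipoprotein uptake and lysosomal cholesterol export, of which 12 were tested, 1 rose and 1 fell, close to the shares over all genes (4.61% and 5.53%). Sort1, which encodes the sorting receptor sortilin, fell to 1.54, 1.47 and 4.30 CPM in shPostn, against 8.31, 13.4 and 8.98 CPM in shSCR (log2 fold change −2.07, SE 0.47, edgeR adjusted p = 0.0429; 0.145 without shSCR replicate 2). Npc2, a lysosomal cholesterol carrier, rose to 479, 452 and 425 CPM, against 376, 355 and 361 CPM in shSCR (log2 fold change 0.31, edgeR adjusted p = 0.0344; 0.151 without shSCR replicate 2). Npc2 lies on chromosome 12, whose median was 0.39, and its value was −0.08 with chromosome medians taken out.

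None of the 11 tested genes of the liver X receptor (LXR) and cholesterol efflux list changed by edgeR, and the median was 0.34 (log2 fold change). At an unadjusted p under 0.05, 2 were higher and 1 lower, beside 13.4% and 13.5% of all genes. The members with the highest CPM averaged over both groups were Soat1, which esterifies cholesterol, with 227, 180.3 and 219 CPM in shPostn and 227, 176 and 178 CPM in shSCR, and Arl4c, an LXR target, with 234, 195 and 208 CPM in shPostn and 210.2, 177 and 171 CPM in shSCR. Both overlapped between the groups. DESeq2 called 1 of the 11 higher, beside 7.54% of all genes: the cholesterol exporter Abca1, named here after its values were seen. Abca1 had 194, 185 and 308 CPM in the shPostn libraries, against 129, 130.3 and 153 CPM in the shSCR libraries (edgeR adjusted p = 0.0809). In 6 of the 11 (Nr1h3, Abca1, Abcg1, Smpdl3a, Nceh1 and Ch25h) shPostn replicate 3, the library with the highest leukocyte markers, was the highest of all libraries, beside 19.3% of all genes tested. Abcg1, for example, stood at 0.718, 0.607 and 6.09 CPM in shPostn and 1.13, 1.42 and 0.761 CPM in shSCR. The part of leukocyte RNA in these values was not tested.

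Neighbouring branches of synthesis were counted in the same way. Of 25 further genes for fatty acid synthesis, activation and supply, 20 were tested, 2 rose and 1 fell (4.61% and 5.53% over all genes), with a median log2 fold change of 0.00. Acsl4, which activates arachidonic acid, rose (log2 fold change 0.55, edgeR adjusted p = 0.0393), as did the elongation dehydratase Hacd1 (0.53, edgeR adjusted p = 0.0411), and Fads3 fell by 0.27 (edgeR adjusted p = 0.0408). Without shSCR replicate 2 these adjusted p-values were 0.157, 0.137 and 0.155.

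Of 12 further mevalonate and isoprenoid genes, 11 were tested, none rose and 2 fell, set against 4.61% and 5.53% of all genes (median −0.05). Pggt1b, a subunit of geranylgeranyl transferase, stood at 40.7, 40.4 and 40.2 CPM in shPostn, against 56.2, 56.6 and 60.1 CPM in shSCR (log2 fold change −0.51, edgeR adjusted p = 0.00502). It lies on chromosome 18, and its value was −0.06 with chromosome medians taken out. Dhdds, which makes dolichol precursors, fell by 0.37 (edgeR adjusted p = 0.0452, 0.170 without shSCR replicate 2); its value was −0.23 with chromosome medians taken out.

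The choice of genes did not use promoter sequence. The strings were, however, searched as motifs of sterol-regulated genes, so the shares below carry no test. A match is a description of the letters, not a binding site. RefSeq windows were found for 26 of the 33 genes (35 windows); Sqle, Fdps, Fdft1, Scd1, Scd2, Fads1 and Stard4 had none in the table. On either strand, CCAAT stood in 14 of 15 sterol genes (93.3%), in 2 of 5 fatty acid genes (40.0%) and in 4 of 5 regulators (80.0%), beside 41.1% of all 27025 genes with a window. Those 27025 include many genes not tested here, whereas all 33 were tested. The Acaca window, which held no match, lies inside the annotated gene. So do the Tm7sf2 window, the Vldlr window shown and further windows of Pmvk, Dhcr7, Srebf1 and Insig2, some of them with a match. The palindromic E-box stood in 3 of 15 sterol genes (Hsd17b7, Sc5d and Dhcr7), in 2 of 5 regulators (Scap and Insig1) and in 8.09% of all genes. The sterol regulatory element core, searched only as TCACNCCAC, stood in Hmgcs1 alone among the 26, and in 1.44% of all genes. Variants of that string were not counted, so a gene without a match may still hold such an element. Genes with several windows had more chances of a match; by window, the CCAAT share was 77.8% for sterol genes and 37.4% for all.

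**Figure D5:**
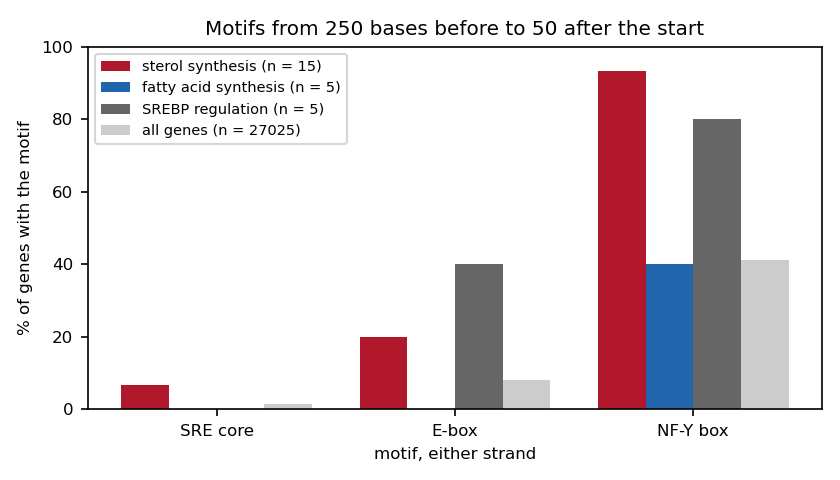
Share of genes (vertical axis, percent) with each motif on either strand between 250 bases before and 50 bases after a start, for sterol, fatty acid and regulator genes and for all genes with a RefSeq window. The NF-Y box is in 93.3% of sterol genes and 41.1% of all genes; bars at 0 are groups without a match.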

How the data were processed

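Expression was measured by strand-specific mRNA sequencing (BGI, DNBSEQ) of TRIzol RNA, per the labels. The deposited estimated counts per Ensembl gene were made by the authors with Salmon and mm10, per the submitters' processing notes. Neither their versions nor the annotation is given in the sources used here. Rounding changed no value (0 were not whole). Symbols, positions and exon lengths came from GENCODE M21 (GRCm38), and 35493 of 35727 IDs had a symbol. Not every gene of these pathways is reported here.

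Genes passing filterByExpr (minimum count 10) were scaled by TMM and compared, shPostn against shSCR, with edgeR 4.0.16 (R 4.3.3, robust quasi-likelihood F-test, no covariate). Benjamini-Hochberg adjustment covered all 12819 tested genes; calls were made at 0.05, and intervals are 95%. Levels between genes are CPM per kb of exon union. The procedure was tested on counts simulated independently for each gene, with changes larger than those of the enzymes here. The simulation held no shift shared by the genes of a library, so it does not cover the library differences described above. Counts of the 33 genes ranged from 104 to 30107 per library. Reads carry no molecular identifiers.

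The genes and the lists were chosen with earlier results of these data known. Every one of the 33 genes is named, and values in each library are given for genes past the threshold and for a fixed set of regulators and enzymes (Srebf1, Srebf2, Scap, Insig1, Insig2, Hmgcs1, Sqle, Fasn, Acaca and Scd1). Those of Mvk, Tm7sf2, Acly, Scd2, Dhcr7, Stard4, Abca1 and Abcg1 were added after their values were seen, as were the promoters shown. Of other lists, up to 4 called genes are named, or the 2 most abundant where none was called. Alternatives were other scaling factors and filters, DESeq2 1.42.0, limma-voom (limma 3.58.1), a replicate block, a leukocyte covariate, chromosome medians taken out of the offsets and each library left out. Figures used Python 3.11.15 and matplotlib 3.10.9.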

Additional observations from a re-analysis of the deposited data

How the results depend on the processing

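The medians of both branches moved by less than the spread between libraries under all alternatives, at 0.25 to 0.57 (sterol) and 0.25 to 0.44 (fatty acid) with 1 library left out. Of the 33 genes, 1 was called with all libraries, 2 with the leukocyte covariate and 5 with DESeq2, and 0 to 8 with 1 library left out. Genes called overall numbered 1300, against 2193, 1973 and, with chromosome medians taken out, 654 under these alternatives, and 307 to 2220 with 1 library left out. Over all genes tested, libraries of the same number did not deviate together (correlations of same-numbered deviations −0.07, −0.13 and −0.44). For most genes of the 2 synthesis branches, however, replicate 1 was the highest library of each group. With a replicate block, 735 genes were called, among them 5 of the 33 (Acat2, Cyp51, Hsd17b7, Elovl6 and Fads2, all higher) and not Vldlr (adjusted p = 0.0501), and Postn was at −3.16 (adjusted p = 0.0592); Postn ranged over −3.40 to −2.71 with 1 library left out.

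Signs turned, never past the threshold, with 1 library left out for Hmgcs1 (range −0.131 to 0.320, negative without shPostn replicate 1), Ebp (−0.133 to 0.0196, positive without shSCR replicate 2), Fads1 (−0.0781 to 0.131, negative without shSCR replicate 3 or shPostn replicate 1), Srebf1 (−0.0281 to 0.107, negative without replicate 3 of either group), Scap (−0.133 to 0.0555, positive without shPostn replicate 3) and Insig2 (−0.0462 to 0.0511, positive without shSCR replicate 1 or shPostn replicate 2). With chromosome medians taken out they turned for Srebf1 (−0.0360), Insig2 (0.0268), Stard4 (0.296) and Npc2 (−0.0777), and Insig2 was also positive with relative log expression factors (0.0019) and DESeq2 (0.0018). The causes were not tested. With a median SE of 0.22 on the log2 scale, the intervals of most sterol enzymes included 0.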

Other observations

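Of 16 genes of glycerolipid assembly, all tested, none rose and 1 fell, beside 4.61% and 5.53% of all genes tested (median log2 fold change −0.07). Dgat1, which forms triglycerides, fell to 17.8, 19.6 and 18.7 CPM in shPostn, against 22.2, 23.3 and 24.2 CPM in shSCR (log2 fold change −0.31, edgeR adjusted p = 0.0448; 0.156 without shSCR replicate 3). DESeq2 did not call it and called Gpat3 instead, lower in shPostn.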
